A study of Mus musculus with 9 samples.

Results

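Nuclear receptors were followed in 9 mouse liver tumors, as the 39 gene symbols of a list that runs from the bile acid, oxysterol and xenobiotic receptors of hepatocytes to the retinoid, steroid, thyroid hormone and orphan receptors. All 39 were found among the 24421 symbols of the deposited files. The groups were S7HP+Snail (tumors 13, 14 and 15), S7HP (tumors 9, 11 and 12) and LHP (tumors 2, 3 and 6), and values below follow that tumor order. All came from C57BL/6 mice of 11 weeks, and the labels give no further allele, agent, promoter or delivery route. Column names in the files tie S7HP to Smad7, an inhibitor of TGF-β receptor signaling, and LHP to Luc. The other letters are not spelled out, and whether each tumor came from its own animal is not stated. The p-values therefore measure only how far these tumors spread, which may include technical spread. The series was made to study TGF-β, Smad and Snail signaling in tumors. Snail, the product of Snai1, is a zinc finger repressor that TGF-β induces.

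Nuclear receptors are transcription factors, most of which bind a hormone, vitamin or lipid and then exchange corepressors for coactivators on DNA. Many pair with a retinoid X receptor (RXR) and recognise copies of the half-site AGGTCA. In liver, they set bile acid synthesis and export (FXR, SHP, LRH-1), detoxification (PXR, CAR), cholesterol efflux and lipid synthesis (LXR), fat oxidation and storage (the PPARs) and the daily clock (REV-ERB, ROR), while retinoid and vitamin D receptors are also known from the liver's stellate cells.

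Each value is log2(quantile-normalized read count + 1), called here a log2 value, and a difference between groups is a difference of mean log2 values. The 9 libraries were scaled to nearly the same total, between 19910396 and 19911234 normalized counts, so the original depth is not preserved. The labels name a QuantSeq kit, a method that counts the 3′ ends of transcripts, but the catalogue number beside it may be that of another kit. If the libraries covered whole transcripts, counts would also depend on transcript length. Levels of different genes were not compared with each other. A symbol was tested where its log2 value reached 4 in at least 3 of the 9 libraries. That held for 14215 symbols and for 34 of the 39 receptors, 30 of which reached 4 in every library. Differences were tested with limma over all 9 tumors, and calls were made at an adjusted p under 0.05 (Benjamini-Hochberg, over all 14215).

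Smad7 had log2 values of 7.31, 6.77 and 8.002 in S7HP+Snail tumors, 6.46, 6.81 and 6.28 in S7HP tumors and 10.23, 10.50 and 9.49 in LHP tumors. Snai1 had 8.53, 7.31 and 8.47 in S7HP+Snail tumors, 6.17, 6.34 and 6.92 in S7HP tumors and 9.93, 11.16 and 10.99 in LHP tumors. Smad7 was thus 11.7-fold lower in S7HP than in LHP and 6.54-fold lower in S7HP+Snail than in LHP (limma, adjusted p = 0.000691 and 0.00505). Snai1 was 18.6-fold and 6.02-fold lower in the same comparisons (limma, adjusted p = 0.000613 and 0.00931), and its difference of 1.63 between S7HP+Snail and S7HP was not called (0.085). These directions run against what a counted Smad7 construct in S7HP tumors would give. Whether transcripts of the constructs were counted under the mouse symbols is not stated, so the group names are used as labels only and were not checked by these genes. Albumin, which defines hepatocytes, lay between 12.98 and 17.32 in every tumor. S7HP tumor 9 stood apart: its 10 hepatocyte markers summed to 325110 normalized counts, against 96077 and 99623 in S7HP tumors 11 and 12. Marker sums here are of unlogged counts, so the most abundant genes, such as albumin, weigh most. Cyp2e1 alone of the 10 was not highest in S7HP tumor 9, at 9.56 against 9.86 in S7HP tumor 11. Tumor 9 was also the highest of its group for 21 of the 34 tested receptors, a larger share than the 32.3% of all tested genes for which it was highest. Results are therefore also given without it.

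For the bile acid, xenobiotic and retinoid receptors FXR, PXR, SHP and RARγ, whose genes were called below, the 250 bases before RefSeq's start sites lie outside every annotated exon. These windows are printed because they show the receptors' own upstream DNA beside 2 short motifs that bear on the study: CAGGTG (reverse complement CACCTG), the E-box that Snail proteins bind, and AGGTCA (reverse complement TGACCT), the nuclear receptor half-site. Capitals mark a match on either strand, and no match of one motif overlapped a match of the other in the windows printed. The sequences are from RefSeq, build GRCm38.p6, 5′ to 3′ on the gene's strand. Nr1h4 is chr10:89506659-89506908 on the minus strand, Nr1i2 is chr16:38294825-38295074 on the minus strand, and Nr0b2 is chr4:133553126-133553375 on the plus strand. The 2 starts of Rarg have chr15:102246501-102246750 and chr15:102257523-102257772, both on the minus strand. The Nr1h4 window and the first Rarg window precede internal starts and lie within the annotated span of their own gene. The other windows printed lie outside it.
Nr1h4: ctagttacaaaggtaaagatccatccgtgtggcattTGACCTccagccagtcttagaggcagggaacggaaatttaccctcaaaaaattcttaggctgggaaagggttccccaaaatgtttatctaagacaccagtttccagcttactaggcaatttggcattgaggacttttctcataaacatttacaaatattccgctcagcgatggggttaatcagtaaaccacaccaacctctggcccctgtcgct
Nr1i2: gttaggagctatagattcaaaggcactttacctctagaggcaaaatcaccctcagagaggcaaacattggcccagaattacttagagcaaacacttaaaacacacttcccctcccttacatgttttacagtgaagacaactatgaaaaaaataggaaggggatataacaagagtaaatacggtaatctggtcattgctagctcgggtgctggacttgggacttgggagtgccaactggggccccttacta
Nr0b2: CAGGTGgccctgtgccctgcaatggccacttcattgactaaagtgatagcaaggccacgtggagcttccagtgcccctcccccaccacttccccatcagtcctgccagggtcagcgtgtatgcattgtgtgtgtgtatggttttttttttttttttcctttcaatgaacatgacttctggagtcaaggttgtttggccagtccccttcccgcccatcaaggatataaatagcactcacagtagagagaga
Rarg, start 1: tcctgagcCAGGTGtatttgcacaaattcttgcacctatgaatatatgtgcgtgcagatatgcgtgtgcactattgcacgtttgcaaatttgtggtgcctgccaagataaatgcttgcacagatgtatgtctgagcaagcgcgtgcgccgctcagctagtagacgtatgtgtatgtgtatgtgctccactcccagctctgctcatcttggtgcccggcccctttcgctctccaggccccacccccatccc
Rarg, start 2: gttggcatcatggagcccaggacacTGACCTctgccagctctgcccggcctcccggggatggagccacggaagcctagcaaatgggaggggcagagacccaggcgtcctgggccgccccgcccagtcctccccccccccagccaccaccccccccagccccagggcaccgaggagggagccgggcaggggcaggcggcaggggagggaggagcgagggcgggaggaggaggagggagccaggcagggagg

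The Nr1h4 window held a half-site, the Nr0b2 window and the first Rarg window an E-box, the second Rarg window a half-site, and the Nr1i2 window neither. Promoter entries were found for 36 of the 39 receptors, with 55 windows. The E-box stood in 12 of the 55 windows (21.8%), against 17.2% of 32851 windows of 27025 mouse genes. The half-site stood in 10 of them (18.2%), against 14.0% of all windows. The 2 windows of Nr2f1 and the 1 window of Nr2f2 held neither motif. They lie within annotated exons and are not printed. A match is a string of letters and was not tested for binding.

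In S7HP tumors against LHP tumors, FXR, SHP, LXRα, PXR and PPARγ were higher, with the orphan receptors TR2 and GCNF, while COUP-TFI, COUP-TFII, RARα, RARγ, PPARδ and the vitamin D receptor were lower. Relatives of several of them (LXRβ, CAR, RARβ and EAR2) did not pass the test. Of the 34 tested, 7 were higher (Nr0b2, Nr1h3, Nr1h4, Nr1i2, Nr2c1, Nr6a1 and Pparg), 6 were lower (Nr2f1, Nr2f2, Ppard, Vdr, Rara and Rarg) and 21 did not pass the test. The 13 called make 38.2% of those tested, beside 19% of all 14215 genes (9.47% higher and 9.54% lower). The median difference was 0.17 over the 34 receptors and 0.02 over all genes. Groups did not overlap for 20 of the 34, with 11 higher and 9 lower in S7HP, beside 42.1% of all genes. Without S7HP tumor 9, 3 were called higher (Nr1h4, Nr1i2 and Pparg) and 7 lower, and the lowest count of higher receptors without any 1 tumor was 3, without LHP tumor 2 or 6 or S7HP tumor 9.

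In S7HP+Snail tumors against S7HP tumors, both COUP-TF genes, Nr2f1 and Nr2f2, were higher, and no receptor was called lower. The 2 called make 5.88% of the 34 tested, beside 2.3% of all genes (1.01% higher and 1.29% lower). At an unadjusted p under 0.05 in limma, 7 receptors stood higher and 0 lower, beside 8.53% and 9.29% of all genes. Groups did not overlap for 7, all higher in S7HP+Snail, beside 9.53% of all genes that were higher without overlap and 20.5% in either direction. The median difference was 0.24 over the receptors and -0.02 over all genes. In S7HP+Snail tumors against LHP tumors, Nr1h4 was higher and Ppard and Vdr were lower, 8.82% of the 34 beside 7.22% of all genes (3.35% higher and 3.87% lower), a share near that of all genes. Groups did not overlap for 17 receptors there, 10 higher and 7 lower in S7HP+Snail, beside 30.5% of all genes (14.7% higher and 15.8% lower). The median difference was 0.48 over the receptors and -0.00 over all genes. The S7HP tumors enter both of the comparisons in which Nr2f1 and Nr2f2 were called, and the LHP tumors both of those against LHP, so the calls do not come from separate tumors.

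**Figure D1:**
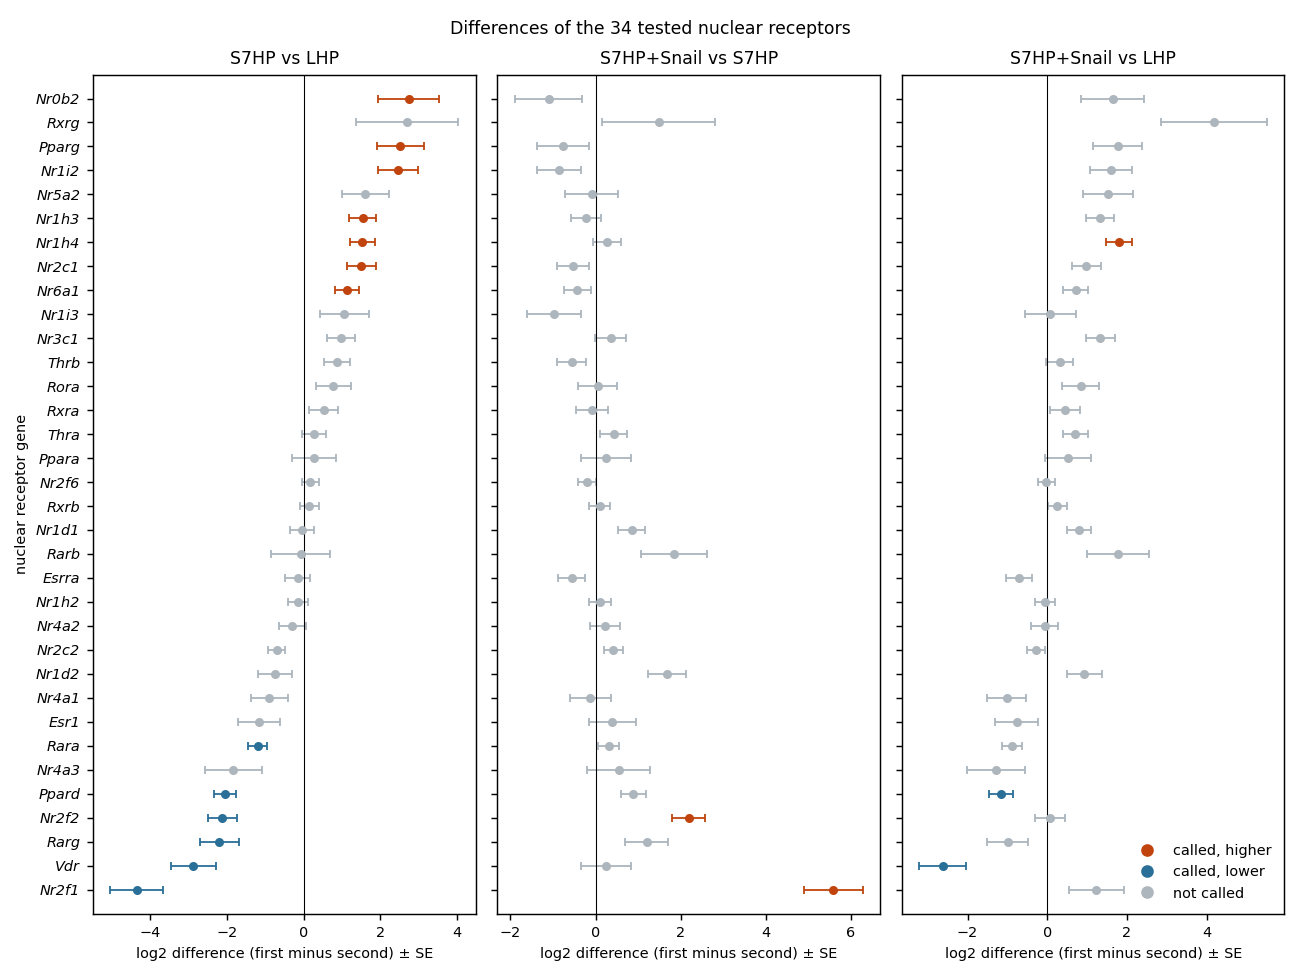
Difference in mean log2 value (x axis, log2 units) of the 34 tested receptors (y axis) in each of the 3 comparisons, first group minus second, with limma's standard error as bars. Orange points are called higher and blue ones lower: 7 and 6 in S7HP against LHP, 2 and 0 in S7HP+Snail against S7HP, and 1 and 2 in S7HP+Snail against LHP.

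Nr2f1 (chr13:78188973-78199757) and Nr2f2 (chr7:70351944-70366735) encode COUP-TFI and COUP-TFII, orphan receptors of the developing nervous system and of mesenchyme and venous endothelium. Nr2f1 had log2 values of 9.995, 9.41 and 11.25 in S7HP+Snail tumors, 4.91, 4.50 and 4.50 in S7HP tumors and 9.53, 10.12 and 7.31 in LHP tumors. Every S7HP tumor was thus below every other tumor, and the other groups overlapped. The difference was -4.35 ± 0.69 (SE), or 20.4-fold lower, in S7HP against LHP (limma, adjusted p = 0.00395). It was 5.58 ± 0.69, or 47.9-fold higher, in S7HP+Snail against S7HP (limma, adjusted p = 0.00578). Between S7HP+Snail and LHP it was 1.23, with a 95% interval of -0.32 to 2.78 (limma, adjusted p = 0.301).

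Nr2f2 showed the same order with a smaller range. Its log2 values were 11.92, 13.02 and 11.27 in S7HP+Snail tumors, 10.14, 9.83 and 9.67 in S7HP tumors and 12.18, 11.88 and 11.94 in LHP tumors. The 3 S7HP tumors again lay below all others. The difference was -2.12 ± 0.38, or 4.35-fold lower, in S7HP against LHP (limma, adjusted p = 0.00641) and 2.19 ± 0.38, or 4.56-fold higher, in S7HP+Snail against S7HP (limma, adjusted p = 0.0219). This last call was lost without any 1 of the S7HP tumors 9, 11 and 12, at adjusted p between 0.0531 and 0.0887. S7HP+Snail and LHP differed by 0.07, with an interval of -0.79 to 0.92 (limma, adjusted p = 0.926). Both genes' calls in S7HP against LHP, and that of Nr2f1 in S7HP+Snail against S7HP, held without each tumor in turn.

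Each COUP-TF gene has a neighbour whose exons overlap it on the genome. A830082K12Rik, antisense to Nr2f1, had log2 values of 4.35, 5.84 and 6.57 in S7HP+Snail tumors, 2.12, 1.29 and 0.00 in S7HP tumors and 6.50, 7.07 and 2.92 in LHP tumors. It was called lower in S7HP against LHP (limma, adjusted p = 0.0262). However, it passed the filter through LHP and S7HP+Snail tumors alone, so a difference from S7HP was built into its entry. Whether the authors' counting used strand is not given in the sources used here, so reads of Nr2f1 and of this antisense gene may not be fully separated. B130024G19Rik, which overlaps Nr2f2, was not called (limma, adjusted p = 0.341 in S7HP against LHP). Nr2f6 (EAR2), the third gene of the family, did not follow them: it lay between 8.93 and 9.40 in S7HP+Snail, 9.31 and 9.51 in S7HP and 9.05 and 9.41 in LHP tumors (limma, adjusted p = 0.602 in S7HP against LHP).

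**Figure D2:**
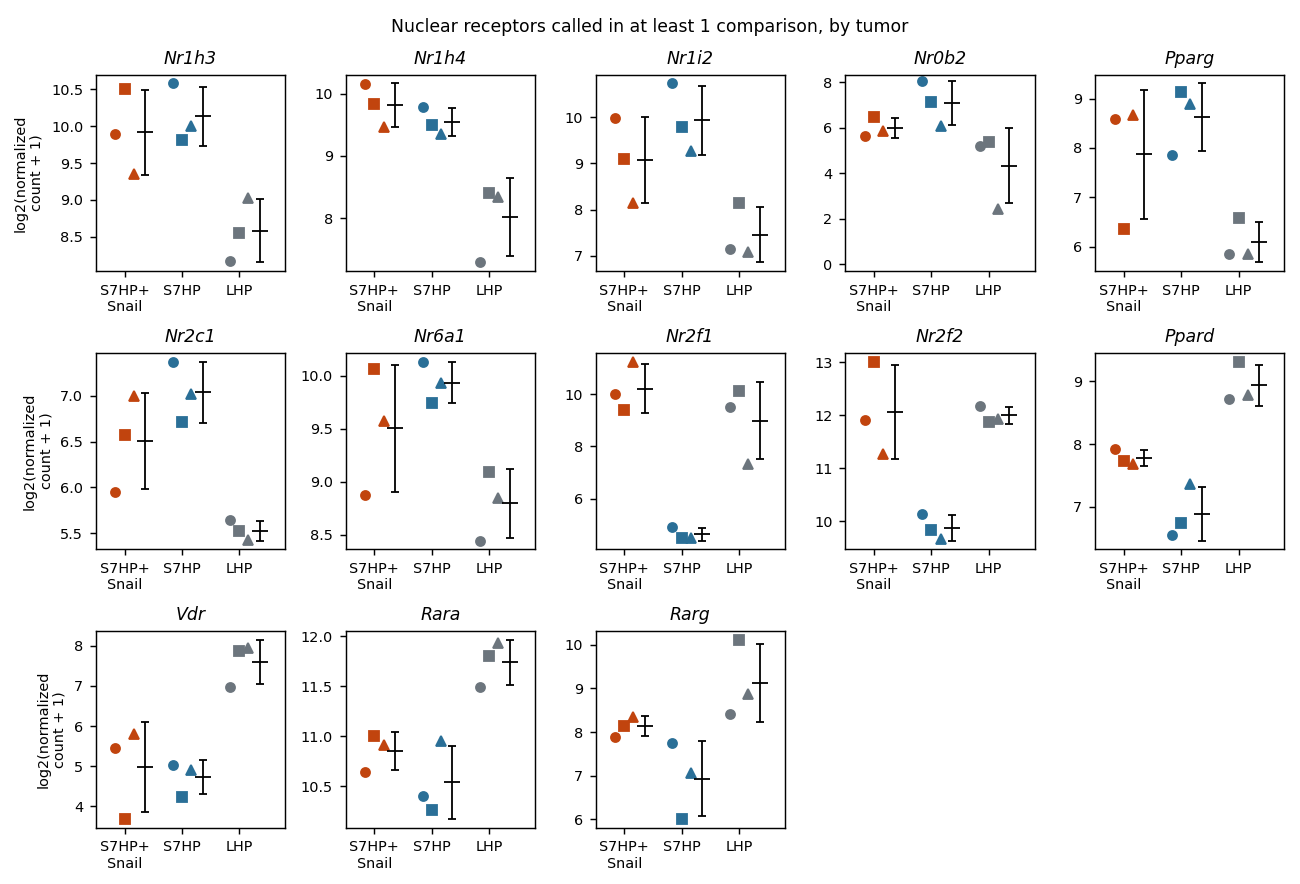
Log2(normalized count + 1) (y axis, its range set for each gene) of the 13 receptors called in at least 1 comparison, by group (x axis). Symbols are the 3 tumors of a group in order of tumor number (circle, square, triangle), and bars give mean ± SD (n = 3). Nr2f1 sits between 4.50 and 4.91 in the S7HP tumors and at or above 7.31 in all others.

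Among bile acid and sterol receptors, Nr1h4 (chr10:89454234-89533585) encodes FXR, which senses bile acids and restrains their synthesis. Its log2 values were 10.16, 9.84 and 9.46 in S7HP+Snail tumors, 9.79, 9.50 and 9.35 in S7HP tumors and 7.29, 8.40 and 8.35 in LHP tumors. All 6 tumors with S7HP in their label were above all LHP tumors. It rose by 1.54 ± 0.33, or 2.9-fold, in S7HP against LHP (limma, adjusted p = 0.0124) and by 1.81 ± 0.33, or 3.5-fold, in S7HP+Snail against LHP (limma, adjusted p = 0.0152). Both calls held without each tumor in turn, the S7HP one at 1.41 without S7HP tumor 9 (limma, adjusted p = 0.047), and S7HP+Snail differed from S7HP by 0.27, with an interval of -0.47 to 1.01 (limma, adjusted p = 0.718).

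Nr0b2 (chr4:133553376-133556536) encodes SHP, a receptor without a DNA-binding domain that FXR induces and that represses bile acid synthesis. It had 5.63, 6.46 and 5.86 in S7HP+Snail tumors, 8.03, 7.13 and 6.09 in S7HP tumors and 5.18, 5.40 and 2.44 in LHP tumors. S7HP tumors were all above LHP tumors, by 2.74 ± 0.79 or 6.7-fold (limma, adjusted p = 0.0387), while S7HP+Snail was not called against either (limma, adjusted p = 0.511 against S7HP and 0.232 against LHP). Leaving out LHP tumor 2 or 6, or S7HP tumor 9 or 11, ended the S7HP call, at adjusted p between 0.0509 and 0.129. Nr5a2 (LRH-1), the activator of bile acid synthesis genes that SHP binds, had 9.23, 7.85 and 7.05 in S7HP+Snail, 9.35, 7.71 and 7.33 in S7HP and 6.25, 6.59 and 6.71 in LHP tumors. Its LHP tumors were all lowest, and its difference of 1.61 ± 0.62 in S7HP against LHP missed the threshold (limma, adjusted p = 0.0973).

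Nr1h3 (chr2:91184061-91202834) encodes LXRα, the oxysterol receptor of hepatocytes and macrophages. It had log2 values of 9.89, 10.50 and 9.35 in S7HP+Snail tumors, 10.58, 9.82 and 10.004 in S7HP tumors and 8.18, 8.55 and 9.03 in LHP tumors, with LHP below the rest in every tumor. The S7HP rise was 1.55 ± 0.35 or 2.93-fold (limma, adjusted p = 0.0147), and it was lost when LHP tumor 2 or 3, or S7HP tumor 9, was left out, at adjusted p between 0.0501 and 0.0554. In S7HP+Snail against LHP the difference was 1.33 ± 0.35 and just missed the threshold (limma, adjusted p = 0.05004), passing it without S7HP tumor 9 or S7HP+Snail tumor 15. Exons of Nr1h3 overlap those of the noncoding gene Gm13783 on the same strand, so their reads may mix whether or not strand was used. LXRβ, from the more broadly expressed Nr1h2, had 9.70, 10.08 and 10.55 in S7HP+Snail, 9.87, 10.08 and 10.09 in S7HP and 9.92, 10.49 and 10.10 in LHP tumors. Its groups overlapped, with a difference of -0.16 and an interval of -0.74 to 0.43 in S7HP against LHP (limma, adjusted p = 0.711).

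Of the xenobiotic receptors, Nr1i2 (chr16:38248323-38294824), which encodes PXR, had 9.98, 9.09 and 8.14 in S7HP+Snail tumors, 10.73, 9.79 and 9.27 in S7HP tumors and 7.15, 8.15 and 7.08 in LHP tumors. S7HP stood above LHP in every tumor, by 2.47 ± 0.53 or 5.54-fold (limma, adjusted p = 0.012), a call that held without each tumor in turn. Without S7HP tumor 9 the difference was 2.07 (limma, adjusted p = 0.0431). S7HP+Snail stood between the other groups and was called against neither (limma, adjusted p = 0.436 against S7HP and 0.0966 against LHP), the last turning to 0.0468 without S7HP+Snail tumor 15. Nr1i3, the related receptor CAR, had 7.03, 7.53 and 6.17 in S7HP+Snail, 9.26, 7.31 and 7.10 in S7HP and 6.37, 7.72 and 6.40 in LHP tumors. S7HP tumor 9 was the highest there, the groups overlapped, and CAR did not pass the test (limma, adjusted p = 0.266 in S7HP against LHP). Exons of Nr1i3 overlap those of Tomm40l on the opposite strand, so without strand their reads may mix. Tomm40l was also highest in S7HP tumor 9, at 9.27.

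The PPARs, receptors for fatty acids and their derivatives, differed among themselves. Pparg (chr6:115360951-115490399), the adipocyte regulator of fat storage, had 8.59, 6.36 and 8.66 in S7HP+Snail tumors, 7.85, 9.13 and 8.89 in S7HP tumors and 5.86, 6.57 and 5.86 in LHP tumors. S7HP was higher than LHP in every tumor, by 2.52 ± 0.61 or 5.75-fold (limma, adjusted p = 0.02). Leaving out LHP tumor 2 or 6, or S7HP tumor 11 or 12, ended the call, at adjusted p between 0.0575 and 0.0707. S7HP+Snail tumor 14 lay among the LHP tumors. Without it, S7HP+Snail against LHP passed the test as well (limma, adjusted p = 0.0115, against 0.11 with it).

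Ppard (chr17:28232700-28301474), the broadly expressed PPARδ, went the other way. It had 7.92, 7.72 and 7.68 in S7HP+Snail tumors, 6.55, 6.75 and 7.37 in S7HP tumors and 8.71, 9.31 and 8.78 in LHP tumors, so the 3 groups did not overlap at all. S7HP was lower than LHP by -2.05 ± 0.30, or 4.13-fold (limma, adjusted p = 0.00247), without each tumor in turn as well. S7HP+Snail was lower than LHP by -1.16 ± 0.30, or 2.23-fold (limma, adjusted p = 0.0462), a call that ended without any LHP tumor, any S7HP+Snail tumor or S7HP tumor 11, at adjusted p between 0.0604 and 0.163. The difference of 0.89 ± 0.30 between S7HP+Snail and S7HP was not called (limma, adjusted p = 0.152). Ppara, the fasting receptor that turns on fat oxidation, had 8.87, 10.12 and 8.35 in S7HP+Snail, 9.92, 8.90 and 7.77 in S7HP and 8.13, 9.07 and 8.58 in LHP tumors, with overlapping groups (limma, adjusted p = 0.782 in S7HP against LHP, interval -1.04 to 1.58).

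Vdr (chr15:97854425-97910630), the vitamin D receptor, had log2 values of 5.45, 3.69 and 5.79 in S7HP+Snail tumors, 5.02, 4.23 and 4.91 in S7HP tumors and 6.97, 7.88 and 7.95 in LHP tumors. Every LHP tumor was above all 6 others. It fell by 2.88 (SE 0.59), or 7.34-fold, in S7HP against LHP (limma, adjusted p = 0.0102), also without each tumor in turn, and by 2.62, or 6.16-fold, in S7HP+Snail against LHP (limma, adjusted p = 0.0308). The last call was lost without any 1 of the LHP tumors, at adjusted p between 0.0551 and 0.11.

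Retinoic acid receptors bind the active form of vitamin A as partners of RXR. Rara (chr11:98927818-98974942) had 10.64, 11.00 and 10.92 in S7HP+Snail tumors, 10.41, 10.26 and 10.96 in S7HP tumors and 11.49, 11.80 and 11.93 in LHP tumors. RARα was lower in S7HP than in LHP in every tumor, by -1.20 ± 0.24 or 2.3-fold (limma, adjusted p = 0.00931), and without each tumor in turn. S7HP+Snail tumors were also all below LHP tumors, with a difference of -0.89 ± 0.24 that missed the threshold (limma, adjusted p = 0.0548) and reached 0.0499 without S7HP tumor 12. Rarg (chr15:102234938-102257517) had 7.90, 8.15 and 8.35 in S7HP+Snail tumors, 7.74, 6.01 and 7.05 in S7HP tumors and 8.40, 10.11 and 8.86 in LHP tumors. RARγ was lower in S7HP than in LHP by -2.19 ± 0.51 or 4.58-fold (limma, adjusted p = 0.0167), a call lost without LHP tumor 3 or S7HP tumor 11, at adjusted p between 0.0529 and 0.0572.

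Rarb, whose promoter is a classic target of retinoic acid itself, had 7.57, 11.40 and 9.42 in S7HP+Snail tumors, 7.75, 7.65 and 7.44 in S7HP tumors and 7.78, 7.03 and 8.27 in LHP tumors. S7HP+Snail tumor 13 lay with the S7HP and LHP tumors and the other 2 above them. The difference between S7HP+Snail and S7HP was 1.84 ± 0.78 (limma, adjusted p = 0.252), and without tumor 13 Rarb was called against both S7HP and LHP (limma, adjusted p = 0.0417 and 0.0311). The RXR genes, which supply the common partner, were not called in any comparison. Rxra had 11.83, 11.71 and 10.55 in S7HP+Snail, 12.09, 11.14 and 11.15 in S7HP and 10.81, 10.85 and 11.14 in LHP tumors, a difference of 0.53 in S7HP against LHP with an interval of -0.31 to 1.37 (limma, adjusted p = 0.354). Rxrb had 11.29, 11.75 and 11.94 in S7HP+Snail, 11.29, 11.65 and 11.74 in S7HP and 11.15, 11.59 and 11.48 in LHP tumors, with an interval of -0.39 to 0.69 (limma, adjusted p = 0.695). Rxrg passed the filter in 4 libraries, all with S7HP in their label, at 7.91, 5.66 and 3.62 in S7HP+Snail, 5.02, 5.53 and 2.19 in S7HP and 1.22, 0.00 and 3.42 in LHP tumors. Its spread was wide, and its largest difference, in S7HP+Snail against LHP, was 4.18 ± 1.33 (limma, adjusted p = 0.0901).

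The genes that carry and clear retinoids were set beside their receptors. Of 12 on the list, all tested, 0 were higher and 3 lower in S7HP against LHP, 2 higher and 0 lower in S7HP+Snail against S7HP, and 1 higher and 2 lower in S7HP+Snail against LHP. The list's median difference in S7HP against LHP was -1.56, beside 0.02 over all genes. For this list and those below, the shares of all genes are 9.47% higher and 9.54% lower in S7HP against LHP. They are 1.01% and 1.29% in S7HP+Snail against S7HP, and 3.35% and 3.87% in S7HP+Snail against LHP. The lists are small, and a count of 1 called gene is not read as a result about its list. Stra6, the cell surface receptor that takes up retinol, had 4.49, 9.66 and 6.57 in S7HP+Snail tumors and 7.74, 7.75 and 6.84 in LHP tumors, and was listed at 0 in all 3 S7HP tumors. It passed the filter through the LHP and S7HP+Snail tumors alone, so a difference from S7HP was built into its entry. Stra6 was called in S7HP against LHP (limma, adjusted p = 0.00247, held without each tumor) and in S7HP+Snail against S7HP (limma, adjusted p = 0.0143), the last lost without S7HP tumor 11 or 12, with a pseudocount of 8 or with only the 6 libraries compared, at up to 0.0696. In S7HP+Snail against LHP it was not (limma, adjusted p = 0.791).

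Cyp26b1, which degrades retinoic acid and is induced by it, had 10.70, 10.51 and 9.15 in S7HP+Snail tumors, 7.95, 6.79 and 7.52 in S7HP tumors and 9.14, 9.03 and 8.19 in LHP tumors. It was higher in S7HP+Snail than in S7HP by 2.70 ± 0.47 (limma, adjusted p = 0.0219), a call lost without S7HP tumor 11 or 12 at up to 0.0887. For S7HP against LHP it missed the threshold (limma, adjusted p = 0.0675). The retinoic acid binding protein Crabp2 had 4.38, 3.61 and 1.35 in S7HP+Snail, 0.00, 4.23 and 4.11 in S7HP and 8.06, 9.87 and 9.12 in LHP tumors, lower against LHP in S7HP (limma, adjusted p = 0.008) and in S7HP+Snail (0.0217, lost without LHP tumor 3 or 6 at up to 0.086). Crabp1 was lower in the same comparisons (limma, adjusted p = 0.039 and 0.0343). Its calls were lost without S7HP tumor 9 or 11 or any LHP tumor in the S7HP comparison, at up to 0.137, and without any LHP tumor, without S7HP tumor 11, or without S7HP+Snail tumor 14 or 15 in the other, at up to 0.113.

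**Figure D3:**
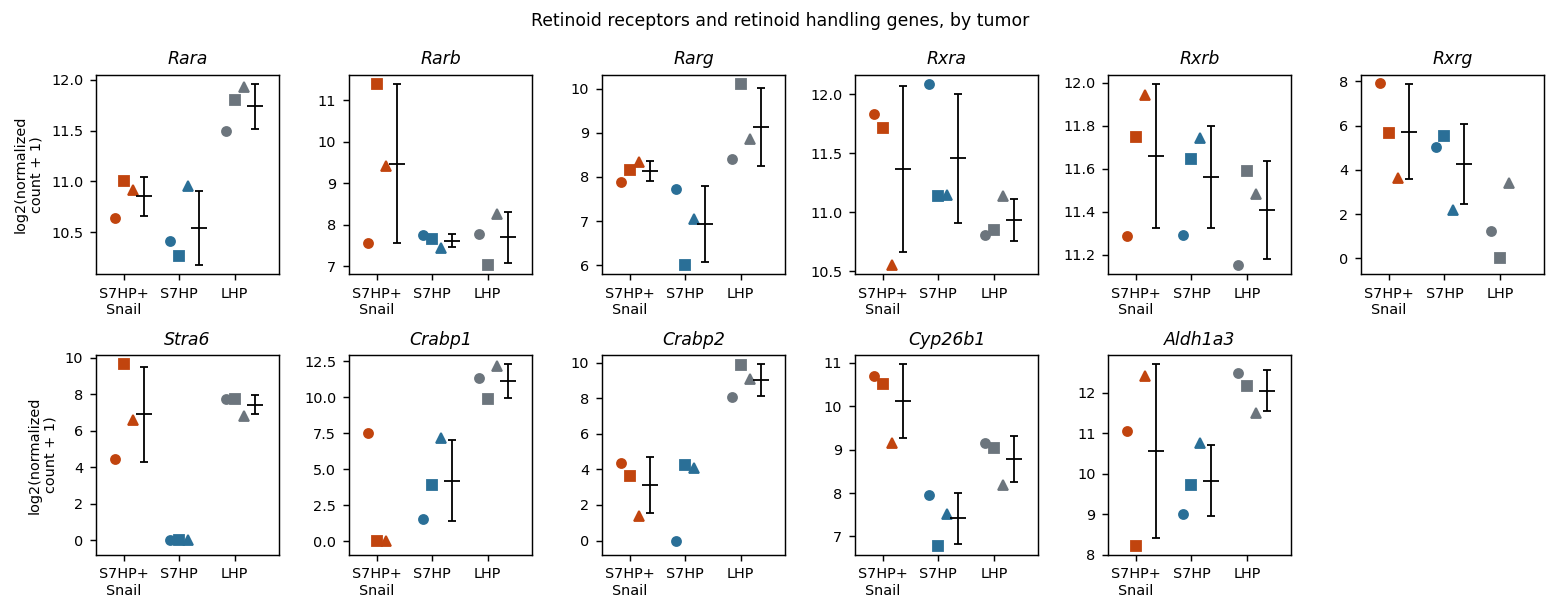
Log2(normalized count + 1) (y axis, its range set for each gene) of the 6 retinoid receptors (top) and 5 genes that carry, take up, make or degrade retinoids (bottom), by group (x axis). Symbols are the 3 tumors of a group in order of tumor number, and bars give mean ± SD (n = 3), left out where a group holds a value of 0. Stra6 is at 0 in all 3 S7HP tumors and between 4.49 and 9.66 in the others.

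Among orphan receptors, Nr2c1 (chr10:94148023-94197211), which encodes TR2, had 5.95, 6.57 and 7.002 in S7HP+Snail tumors, 7.38, 6.71 and 7.03 in S7HP tumors and 5.64, 5.52 and 5.42 in LHP tumors. Both groups with S7HP in their label lay above LHP, and S7HP rose by 1.51 ± 0.37 or 2.85-fold (limma, adjusted p = 0.0211). It passed no longer when LHP tumor 3 or 6, or S7HP tumor 9 or 12, was left out, at adjusted p between 0.0541 and 0.0777. Its paralog Nr2c2 (TR4) had 10.60, 11.03 and 10.37 in S7HP+Snail, 10.29, 10.35 and 10.11 in S7HP and 10.79, 11.01 and 11.05 in LHP tumors. There S7HP was below LHP in every tumor, by -0.70 ± 0.22, and just missed the threshold (limma, adjusted p = 0.0518), passing it without S7HP+Snail tumor 14 or 15. Nr6a1 (chr2:38723370-38927688), the germ cell nuclear factor that silences pluripotency genes in the mouse embryo, had 8.88, 10.06 and 9.58 in S7HP+Snail, 10.13, 9.75 and 9.93 in S7HP and 8.44, 9.09 and 8.85 in LHP tumors. S7HP was above LHP by 1.14 ± 0.32 or 2.21-fold (limma, adjusted p = 0.033), a call lost without any 1 S7HP or LHP tumor, at adjusted p between 0.0543 and 0.104.

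Clock receptors were not called. Nr1d2, the repressor REV-ERBβ, had 10.12, 11.37 and 9.62 in S7HP+Snail tumors, 9.10, 8.79 and 8.16 in S7HP tumors and 9.86, 9.40 and 9.05 in LHP tumors. S7HP+Snail was above S7HP in every tumor, by 1.69 ± 0.44 (limma, adjusted p = 0.085, and 0.0432 without S7HP+Snail tumor 15). Nr1d1 (REV-ERBα) stood in the same order, at 7.04, 7.31 and 7.38 in S7HP+Snail and 6.38, 6.34 and 6.48 in S7HP tumors (difference 0.85 ± 0.31, limma, adjusted p = 0.192). Its exons overlap those of Thra on the opposite strand, so without strand their reads may mix. Rora, which activates the sites that REV-ERB represses, had 10.85, 11.76 and 11.37 in S7HP+Snail, 12.36, 10.36 and 11.10 in S7HP and 10.49, 10.78 and 10.20 in LHP tumors, with S7HP tumor 9 the highest (limma, adjusted p = 0.259 in S7HP against LHP). Of 15 other clock genes tested, 0 were called in S7HP against LHP or S7HP+Snail against S7HP. The repressor gene Bhlhe40 was lower in S7HP+Snail than in LHP by -1.37 (limma, adjusted p = 0.0492, lost without any 1 tumor other than S7HP+Snail tumor 13, at up to 0.161).

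The steroid and thyroid hormone receptors did not pass the test in any comparison. Nr3c1, the glucocorticoid receptor, had 9.08, 10.24 and 9.58 in S7HP+Snail, 9.59, 9.09 and 9.16 in S7HP and 8.28, 8.86 and 7.76 in LHP tumors. Its LHP tumors were the 3 lowest, and its difference of 1.34 ± 0.36 in S7HP+Snail against LHP missed the threshold (limma, adjusted p = 0.0548, and 0.0429 without S7HP+Snail tumor 13). Esr1, estrogen receptor α, had 6.55, 6.87 and 7.22 in S7HP+Snail, 7.86, 5.43 and 6.15 in S7HP and 7.68, 7.42 and 7.84 in LHP tumors, where S7HP tumor 9 alone of its group stood at the level of LHP. Without that tumor Esr1 was called lower in S7HP than in LHP (limma, adjusted p = 0.0206, against 0.162 with it). Thrb, the main thyroid hormone receptor of liver, differed by 0.87 ± 0.34 in S7HP against LHP (limma, adjusted p = 0.1), and Thra by 0.27 (0.585). Esrra, the estrogen-related receptor of mitochondrial gene programs, ranged from 8.49 to 9.31 in S7HP+Snail, 8.90 to 9.92 in S7HP and 9.38 to 9.81 in LHP tumors. Exons of Esrra overlap those of Trmt112 on the opposite strand, so without strand their reads may mix. Trmt112 ranged from 9.30 to 10.51 in S7HP+Snail, 9.96 to 10.84 in S7HP and 9.97 to 10.60 in LHP tumors.

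The NR4A receptors, immediate early genes that act without a known ligand, were not called either. Nr4a1 ranged from 5.58 to 7.24 in S7HP+Snail, 6.57 to 7.18 in S7HP and 7.30 to 8.24 in LHP tumors, highest in LHP. Nr4a2 overlapped throughout, between 7.52 and 8.66. Nr4a3 had 4.38, 6.58 and 3.50 in S7HP+Snail, 4.28, 3.74 and 4.82 in S7HP and 6.10, 5.93 and 6.30 in LHP tumors, and it was called lower in S7HP than in LHP without S7HP+Snail tumor 14 (limma, adjusted p = 0.0252, against 0.11 with it). Of 9 other immediate early genes, Egr3 was lower in S7HP than in LHP by -4.11 (limma, adjusted p = 0.00251) and higher in S7HP+Snail than in S7HP by 3.60 (limma, adjusted p = 0.0197, lost without S7HP tumor 11 or 12 at up to 0.0834). Egr2 was lower in S7HP+Snail than in LHP by -1.98 (limma, adjusted p = 0.0462, lost without any LHP tumor, without S7HP tumor 9 or 11, or without S7HP+Snail tumor 13 or 14, at up to 0.148).

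The 5 receptors below the filter were Nr3c2, Hnf4g, Pgr, Esrrb and Esrrg. Taking the lowest steps of each file as whole reads, 3 reads correspond to a log2 value between 1.22 and 2.64, so most of these values are a few reads. Nr3c2, the mineralocorticoid receptor, had 0.00, 0.00 and 1.96 in S7HP+Snail, 3.58, 3.90 and 4.78 in S7HP and 1.22, 0.00 and 0.00 in LHP tumors, highest in each S7HP tumor. Hnf4g, a paralog of Hnf4a, had 5.49, 0.00 and 2.35 in S7HP+Snail, 3.27, 3.53 and 4.05 in S7HP and 0.29, 1.83 and 0.00 in LHP tumors. Pgr, the progesterone receptor, was at 2.47, 1.53 and 4.55 in S7HP+Snail tumors and at or under 1.29 in all others, and the orphan Esrrg was at 5.66 in S7HP+Snail tumor 14 and at or under 2.35 in the other tumors. Esrrb, a paralog of Esrrg, did not exceed 3.10 in any tumor.

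Of 9 further nuclear receptors outside the list, 4 were tested, and 2 were called higher and 2 lower in S7HP against LHP. Hnf4a, a master regulator of hepatocyte genes, had 9.17, 8.47 and 8.45 in S7HP+Snail, 10.19, 9.91 and 9.61 in S7HP and 6.73, 7.47 and 6.34 in LHP tumors. It was higher against LHP by 3.05 in S7HP (limma, adjusted p = 0.000809) and by 1.85 in S7HP+Snail (0.0155, lost without LHP tumor 2 or 6 at up to 0.0597). Rorb was lower by -3.47 in S7HP against LHP (limma, adjusted p = 0.0264, lost without any LHP tumor or S7HP tumor 9 or 11 at up to 0.0796).

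Coregulators are the proteins that receptors recruit. Of 14 tested, 1 was higher and 3 lower in S7HP against LHP, with a median difference of -0.21 beside 0.02 over all genes, 0 were called in S7HP+Snail against S7HP, and 1 was lower in S7HP+Snail against LHP. The acetyltransferase gene Ep300 was lower in S7HP by -1.31 and the corepressor gene Nrip1 by -1.56 (limma, adjusted p = 0.0119 each, held without each tumor). Ppargc1a, the coactivator PGC-1α, was higher in S7HP by 2.27 (limma, adjusted p = 0.0412, lost without any 1 S7HP or LHP tumor at up to 0.133).

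Some known target genes of the PPARs were higher in S7HP tumors. Of 12 PPARα targets, 4 were higher and 0 lower in S7HP against LHP: Vnn1 by 3.08, Acadm by 1.82, Acot1 by 2.51 and Angptl4 by 2.15 (limma, adjusted p = 0.00154, 0.00163, 0.00215 and 0.0121), all held without each tumor. In S7HP+Snail, Vnn1 and Acot1 were also higher against LHP, by 3.52 and 2.23 (limma, adjusted p = 0.00256 and 0.00789, both held), and Acadm was lower than in S7HP by -1.11 (0.0482, lost without any 1 tumor at up to 0.122). Of 6 tested PPARγ targets, 3 were higher in S7HP and 2 in S7HP+Snail against LHP. Cidec, a lipid droplet protein, had 6.89, 6.06 and 5.86 in S7HP+Snail, 8.08, 8.14 and 8.34 in S7HP and 1.22, 2.26 and 1.22 in LHP tumors, and was called higher against LHP in both (limma, adjusted p = 0.00013 in S7HP and 0.00135 in S7HP+Snail, both held without each tumor). It passed the filter through those 2 groups alone, so a difference from LHP was built into its entry. Cidea and Fabp4 were higher in S7HP (limma, adjusted p = 0.0262 and 0.0296), calls that ended when LHP tumor 3 or 6, or S7HP tumor 9 or 11, was left out, and for Cidea also 12, at up to 0.104. Cd36 was higher in S7HP+Snail against LHP (limma, adjusted p = 0.0441, lost without any LHP tumor, without S7HP tumor 11 or 12, or without S7HP+Snail tumor 13 at up to 0.126).

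Targets of FXR, PXR and LXR were also counted. Of 6 tested bile acid and FXR genes, the bile salt export pump Abcb11 alone was called, higher in S7HP than in LHP by 1.37 (limma, adjusted p = 0.0492), and lost without any LHP tumor, without S7HP tumor 9 or 11, or without S7HP+Snail tumor 13 or 15, at up to 0.146. Of 7 tested PXR and CAR targets, Cyp3a13 was higher in S7HP than in LHP by 3.66 (limma, adjusted p = 0.000755) and lower in S7HP+Snail than in S7HP by -2.82 (0.00946), both held without each tumor. Abcc2, an export pump of conjugates, was higher against LHP by 2.37 in S7HP (limma, adjusted p = 0.0124, held) and by 2.03 in S7HP+Snail (0.0446, lost without any 1 tumor other than S7HP+Snail tumor 15 at up to 0.128). Of 9 LXR targets, 0 were higher and 1 lower in S7HP against LHP while LXRα was higher, but the list's median difference was 0.69 beside 0.02 over all genes. The sterol exporters Abcg5 and Abcg8 differed there by 2.33 and 1.98 and missed the threshold (limma, adjusted p = 0.0609 and 0.0631). Fasn, the fatty acid synthase, was the one lower there, by -0.95 (limma, adjusted p = 0.0333, ended by leaving out LHP tumor 2 or 6, or S7HP tumor 9 or 12, at up to 0.114), and in S7HP+Snail against LHP, by -1.29 (0.022, lost without LHP tumor 2 or 6 or S7HP+Snail tumor 15 at up to 0.0874). Abcg8 was called higher in S7HP+Snail than in LHP by 2.54 (limma, adjusted p = 0.0487, lost without any LHP tumor, without S7HP tumor 9 or 11, or without S7HP+Snail tumor 13 or 14 at up to 0.137).

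Hormone targets complete the lists, all calls here being for S7HP against LHP. Of 5 thyroid hormone genes, Thrsp and Me1 were higher, by 2.56 and 1.71 (limma, adjusted p = 0.03 and 0.0355), and the corepressor gene Hr was lower, by -3.23 (0.0144). Thrsp was lost without LHP tumor 2 or 3, or without S7HP tumor 9 or 11, at up to 0.0969, Me1 without any LHP tumor or S7HP tumor 11 or 12 at up to 0.113, and Hr without LHP tumor 6 at 0.05. Of 11 tested glucocorticoid genes, 3 were higher: the metallothionein Mt2 by 1.71, Hsd11b1, which regenerates active glucocorticoid, by 2.20, and Zbtb16 by 2.96 (limma, adjusted p = 0.0351, 0.0376 and 0.0429). They were lost without any LHP tumor or S7HP tumor 9, and also without S7HP tumor 12 (Mt2), 11 (Hsd11b1) or 11 or 12 or S7HP+Snail tumor 13 (Zbtb16), at up to 0.147. The 1 tested vitamin D gene, the calcium binding protein S100g, was higher by 5.59 (limma, adjusted p = 0.006, held) while Vdr was lower. S100g and Zbtb16 reached the filter in no LHP tumor.

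**Figure D4:**
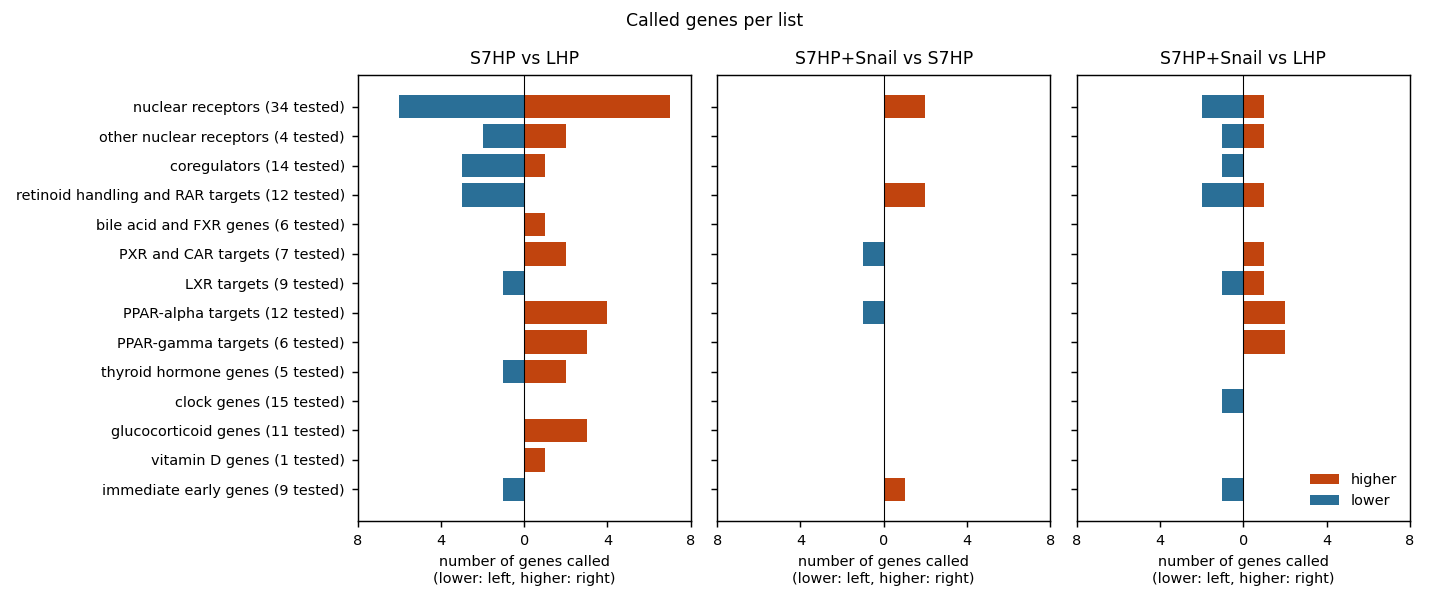
Number of called genes (x axis, lower to the left and higher to the right of 0) in the receptor list and 13 other gene lists (y axis, with the number tested), in the 3 comparisons. In S7HP against LHP the receptors have 7 higher and 6 lower, PPARα targets 4 and 0, and retinoid genes 0 and 3. Of all genes tested, 9.47% were higher and 9.54% lower there.

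Marker genes of liver cell types moved with several of these groups. In bulk tissue, fewer cells of a type and less RNA per cell cannot be told apart. The 10 hepatocyte markers summed to between 84211 and 173184 normalized counts in S7HP+Snail, 96077 and 325110 in S7HP and 27978 and 47630 in LHP tumors, with 4 of 10 called higher in S7HP against LHP. The median difference of the 10 there was 1.68, but not all followed the sum. Cyp2e1 had means of 9.02 in S7HP and 8.84 in LHP, and Ass1 of 9.14 and 9.31. FXR, PXR, LXRα, SHP and LRH-1, like the hepatocyte marker sum, were lowest in LHP by group mean. The 10 stellate and fibroblast markers summed to between 14688 and 22257 in S7HP+Snail, 7258 and 11501 in S7HP and 40611 and 53843 in LHP tumors, with 5 of 10 called lower in S7HP and 3 of 10 in S7HP+Snail against LHP. Ppard stood in the same order of groups and Vdr, like the sum, was highest in LHP. Nr2f1 and Nr2f2 overlapped between S7HP+Snail and LHP, and the marker sum did not. Of its 10 genes, 5 were lower in S7HP+Snail than in LHP without overlap. The others overlapped, among them Des, Dcn and Rgs5. Reln was higher in S7HP than in LHP without overlap. The 10 endothelial markers summed to between 5028 and 7472 in S7HP+Snail, 4006 and 7268 in S7HP and 5535 and 8143 in LHP tumors, and 1 of them, Plvap, was called lower in S7HP against LHP and higher in S7HP+Snail against S7HP. Their median difference was -0.71 in S7HP against LHP, 0.82 in S7HP+Snail against S7HP and -0.10 in S7HP+Snail against LHP. Macrophage markers, 9 of 10 in the files, summed to between 5789 and 12039 in S7HP+Snail, 5301 and 6058 in S7HP and 7633 and 12031 in LHP tumors, with 1 called lower in S7HP against LHP. The 8 biliary and progenitor markers summed to between 29815 and 345930 in S7HP+Snail, 59480 and 153613 in S7HP and 96554 and 184948 in LHP tumors, with 2 called higher and 1 lower in S7HP against LHP and 1 higher in S7HP+Snail against LHP. No lymphocyte or erythroid marker was called. What part these cell types have in the receptor results was not tested.

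**Figure D5:**
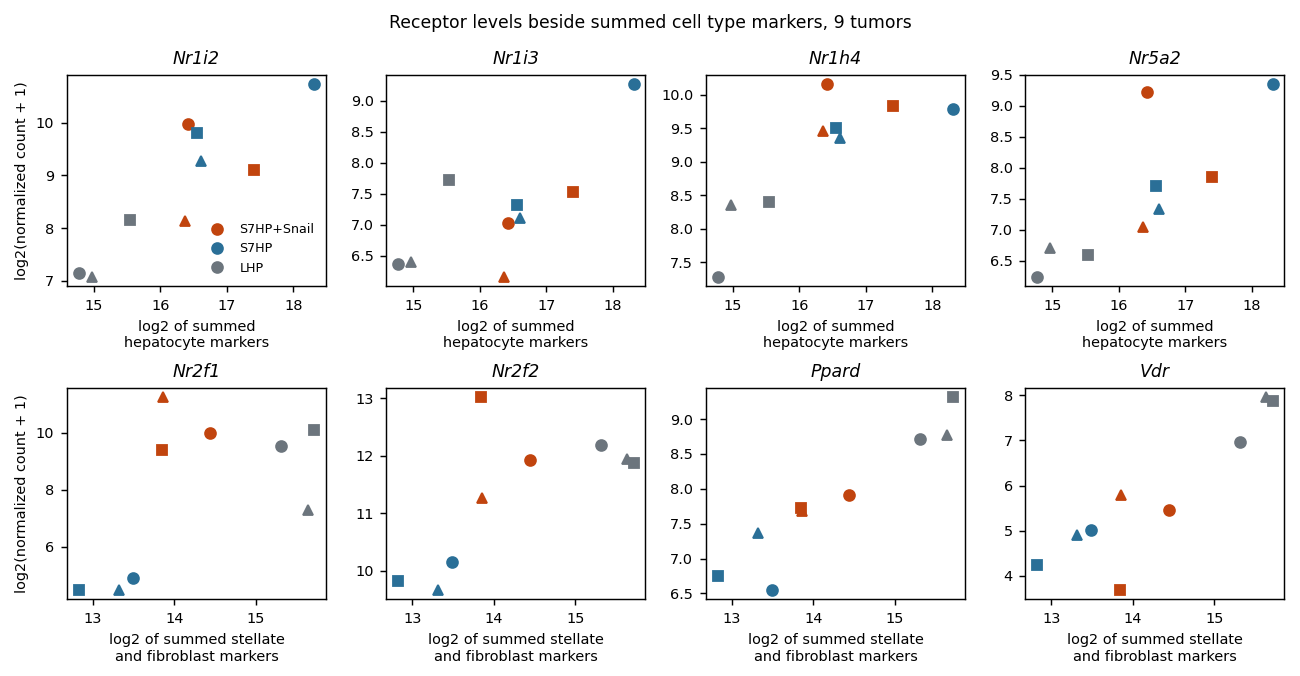
Log2(normalized count + 1) of 8 receptors (y axis, its range set for each gene) against the log2 of summed hepatocyte markers (top, x axis) or summed stellate and fibroblast markers (bottom, x axis), 1 point per tumor, colored by group and shaped by order of tumor number. S7HP tumor 9 is the rightmost point of the top row, and the LHP tumors are the rightmost points of the bottom row. The sums are of unlogged counts, so the markers with the highest counts weigh most. What part these cell types have in the receptor values was not tested.

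The spread between tumors of a group also differed. The median SD of the 34 receptors was 0.579 in S7HP+Snail, 0.410 in S7HP and 0.349 in LHP tumors, beside 0.453, 0.406 and 0.350 over all tested genes.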

How the data were processed

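RNA of 9 liver tumors was made into QuantSeq libraries from 500 ng of total RNA, per the labels' protocols. Bowtie2, edgeR and the build mm10 are named per the submitters' processing notes, without versions or roles. For the counting tool, annotation and strand setting: not given in the sources used here. The authors deposited log2 values of normalized read counts with 1 added. That the normalization was by quantiles is read from the files: their highest value, 20.062, is shared by all 9, and 9 times the unlogged value is whole for 100% of values. Depth is therefore unknown.

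The members and gene lists were chosen with earlier results of these data known. Genes that reached a log2 value of 4 in 3 or more of 9 libraries entered 1 fit of all libraries, made with limma 3.58.1 under R 4.3.3 (eBayes with intensity trend and robust variances, 6 residual degrees of freedom, two-sided, Benjamini-Hochberg adjustment over 14215 genes). The fit was tested on simulated data. Alternatives changed the pseudocount, filter, scaling, variance model and libraries. Per-tumor values are given for receptors called in at least 1 comparison or among the 10 highest by mean, and of each other list up to 4 called genes with the smallest adjusted p per comparison are named, except some that are not reported here. Other receptors and genes were given values after these were seen. Coordinates are from GENCODE mouse release 21 (GRCm38, which is mm10) and promoter windows from RefSeq (GRCm38.p6). A sequence search of the receptor proteins was not run.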

Additional observations from a re-analysis of the deposited data

How the results depend on the processing

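No paired analysis was possible because the tumor numbers are not shared between groups. Over 102 receptor results and 15 alternatives, 1527 values were computed: none changed direction among called results, 43 lost and 19 gained a call, and the others stayed on their side of the threshold. In 38 of those an uncalled difference changed sign, and others shrank (CAR in S7HP against LHP went to 0.38 without S7HP tumor 9, against 1.06 with it). Leaving out 1 tumor gave 3 to 7 receptors higher and 5 to 8 lower in S7HP against LHP, where 7 and 6 were called, with 1465 to 3163 of all genes called, against 2702. In S7HP+Snail against S7HP it gave 1 to 3 higher and 0 lower, with 63 to 451 of all genes, against 327. In S7HP+Snail against LHP it gave 1 to 3 higher and 0 to 3 lower, with 293 to 1049 of all genes, against 1026. With only the 6 libraries compared, S7HP+Snail against S7HP gave 1 receptor higher and 120 genes, and S7HP+Snail against LHP 0 lower and 682 genes. A pseudocount of 8, or a filter at a log2 value of 6, gave 2 higher in S7HP+Snail against LHP, and no filter, or no variance trend together with no robust variances, gave 1 lower. The cause was not tested. Of called receptors, SHP lost its call with no filter and Nr6a1 without the variance trend and robust variances (both S7HP against LHP), COUP-TFII with only 6 libraries (S7HP+Snail against S7HP), and against LHP in S7HP+Snail the vitamin D receptor with only 6 libraries and PPARδ in all of these. Of the other genes named, these lost a call with a changed pseudocount, filter, variance model or set of libraries: Ppargc1a, Crabp1, Abcb11, Fasn, Me1, Mt2, Hsd11b1 and Zbtb16 in S7HP against LHP, Stra6, Cyp26b1 and Acadm in S7HP+Snail against S7HP, and Crabp1, Abcc2, Abcg8, Cd36, Bhlhe40 and Egr2 in S7HP+Snail against LHP. FXR, PXR, COUP-TFI, COUP-TFII, PPARδ, RARα and the vitamin D receptor kept their call in S7HP against LHP in all 15 alternatives. With 3 tumors a group, an exact permutation test of 1 gene could not go below p = 0.1.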
